A study of Mus musculus with 6 samples.

Results

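The genes described here are 10 members of 2 linked cytokine systems, the colony-stimulating factors and the interleukin-6 (IL-6) family, measured by RNA sequencing in mesenchymal stromal cells of mouse femoral bone marrow. They were taken by gene symbol from the 55401 genes of the table and comprise 7 ligands (Csf1, Csf2, Csf3, Il34, Il6, Lif and Il11) and 3 receptor subunits (Il6st, Il6ra and Osmr). Wild-type (WT) cultures and cultures lacking Nlrp3 (NLRP3-/- in the labels), the sensor of an inflammasome, were compared, with 3 libraries in each group. Both groups carry the strain label C57/B6J and both had received LPS, a bacterial outer membrane component sensed by TLR4, at 3 µg/mL for 24 h. The comparison therefore addresses the genotype under LPS; cultures without LPS were not analysed here, so no response to LPS can be given. The labels give neither the age of the animals nor the construction of the knockout allele, and do not state from how many animals or cultures each group was drawn. The titles give the libraries of a group different day numbers, whereas another label gives the same day for all, so that the libraries may differ in day. The spread between libraries on which the p-values rest may therefore be technical, and with a single starting culture per genotype the culture and the genotype cannot be told apart.

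The colony-stimulating factors are secreted proteins that drive the survival and output of myeloid cells. Csf1 and Il34 encode the ligands of the macrophage receptor Csf1r, Csf2 encodes GM-CSF and Csf3 encodes G-CSF, the main driver of granulocyte production. The IL-6 family signals through a shared subunit, gp130, encoded by Il6st. It works with further subunits such as Il6ra, Osmr or Lifr and activates JAK kinases and the transcription factor STAT3. Marrow stromal cells are known sources of several of these ligands, and many of the ligand mRNAs are short-lived because proteins of the Zfp36 family and the endonuclease Zc3h12a act on their 3′ untranslated regions (UTRs).

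AU-rich elements were therefore looked up in the 3′ UTRs. The 3′ UTR of 1 GENCODE M21 transcript per gene was searched on the transcript strand for the pentamer ATTTA, overlapping matches included, and for the longer element TTATTTATT, which contains it. The windows of 30 bases richest in the pentamer are shown for the 4 ligands with most pentamers per kb and for Lif, which also holds the longer element, with the pentamers in capitals:
Csf2: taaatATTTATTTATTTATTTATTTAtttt
Csf3: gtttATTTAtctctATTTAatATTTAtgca
Il6: atttttaATTTAttgataATTTAaataagt
Lif: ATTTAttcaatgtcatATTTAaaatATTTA
Il11: ccagatcttATTTATTTATTTAttttggta
The Csf2 window held 5 overlapping pentamers in 1 run. In the whole 3′ UTR, Csf2 had 9 pentamers in 317 bases, Il6 had 6 in 427, Csf3 had 6 in 669 and Il11 had 10 in 1194. These densities, 28.4, 14.1, 8.97 and 8.38 per kb, lay above those of 99.9%, 99.6%, 98.6% and 98.3% of the 10628 tested genes with a 3′ UTR, whose median was 1.24 per kb. Lif had 7 pentamers in 3180 bases (2.2 per kb), and the ligands Csf1 and Il34 had 1.89 and 2.28 per kb. The receptor subunits Il6st, Il6ra and Osmr had 1.60, 0.544 and 2.23 per kb. The longer element occurred in Csf2 (4 matches), Il11 (5) and Lif (2), and in 7.07% of the tested genes. A match describes letters and is no measured binding site.

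Promoter windows from RefSeq (build GRCm38.p6) were matched for 8 of the 10 members, and the 250 bases before the start site were searched on both strands for a κB motif (GGNNTTTCC), an AP-1 motif (TGANTCA), a C/EBP motif (TTNNGCAA), a STAT motif (TTCNNNGAA) and a cAMP response element (TGACGTCA). Start sites that are also those of the deposited table were found for Il6, Il6st, Csf1, Il6ra and a window of Il11. Of these, the windows of Il6, the name-giving ligand, and of Il6st, the shared receptor, are shown, with matches in capitals. They lie at chr5:30012864-30013113 and chr13:112463820-112464069, both on the plus strand:
Il6: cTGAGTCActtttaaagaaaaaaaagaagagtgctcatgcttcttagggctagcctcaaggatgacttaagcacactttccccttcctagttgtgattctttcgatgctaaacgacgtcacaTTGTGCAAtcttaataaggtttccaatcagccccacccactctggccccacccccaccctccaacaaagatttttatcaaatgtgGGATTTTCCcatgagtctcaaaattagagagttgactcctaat
Il6st: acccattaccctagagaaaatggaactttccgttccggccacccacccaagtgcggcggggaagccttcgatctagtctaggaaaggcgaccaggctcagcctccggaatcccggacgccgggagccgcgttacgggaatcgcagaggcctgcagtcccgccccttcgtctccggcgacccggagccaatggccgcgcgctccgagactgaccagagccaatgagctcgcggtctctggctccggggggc
The Il6 window held an AP-1 match at -249 to -243, a C/EBP match at -128 to -121 and a κB match at -43 to -35, counted from the start site, whereas the Il6st window held none of these motifs. Among the 9 windows of the 8 members, the AP-1 motif also occurred in that of Lif and in an Il11 window. The C/EBP motif also occurred in that of Csf2 and the κB motif in that of Csf1. The Il11 match lies in the window at chr7:4778142-4778391, whose start site is not that of the table. The STAT motif and the cAMP response element occurred in none of the 9 windows. Over all 32851 windows, 6.75% held the AP-1 motif, 9.56% the C/EBP motif, 4.93% the κB motif, 7.02% the STAT motif and 1.55% the cAMP response element.

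The estimated counts summed to between 53.2 and 66.3 M per library. Nlrp3 stood at 2.76, 1.68 and 1.86 FPKM in the WT libraries and at 0 in each knockout library, with an exact two-sided permutation p of 0.1, the smallest that 3 against 3 allows. Knockout replicate 3 stood apart: 7.1% of the 12136 tested genes were at most 60% of the mean of the other 2 knockout libraries there, against 2.21% to 2.95% for each other library, a threshold set after values were seen. Of 24 macrophage markers 19 were tested and all 19 were higher in the knockout libraries (limma), with a summed level of 746 to 849 FPKM in WT and 1739 to 1989 FPKM in knockout libraries; Marco, Clec4d and Adgre1 had the largest differences in log2(FPKM + 1) among those tested. Of 19 stromal markers 17 were tested, 12 were lower and 3 higher (summed level 3729 to 4103 FPKM in WT and 2635 to 2856 FPKM in knockout), with Thy1, Pdgfra and Dcn the most changed in log2(FPKM + 1); in FPKM ratio the stromal marker Nt5e, picked after its values were seen, rose more (0.183 to 2.35 FPKM, 12.8-fold). Of 12 granulocyte genes 4 were tested, 3 higher and 1 lower, with sums of 11.9 to 12.8 and of 15.8 to 20.6 FPKM, while Elane, Cxcr2, Ngp and Retnlg were at 0 in all 6 libraries. Of 8 endothelial markers none was tested (sums of 0.73 to 0.93 and of 0.16 to 0.22 FPKM), of 11 lymphoid markers Trac alone was tested and higher (0.68 to 1.46 and 2.52 to 4.4 FPKM), with Cd3e and Ms4a1 at 0, and of 8 mast cell and basophil markers 2 were tested, Mcpt8 higher and Gata2 lower (5.1 to 5.44 and 2.93 to 3.83 FPKM). The part of these markers in the differences below was not tested, and in bulk RNA fewer cells of a type and less RNA per cell cannot be told apart.

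Of the 10 members, 9 reached the expression filter of FPKM 1 in 3 libraries and 3 were called at an adjusted p of 0.05. Csf3 was higher in the knockout cultures, and Csf2 and Il6st were lower. Over all 12136 tested genes 19.6% were called, 10.4% higher and 9.2% lower. The knockout values lay entirely below the WT values for 6 of the 10 members (Csf2, Il34, Il11, Il6st, Il6ra and Osmr) and entirely above them for 1 (Csf3), beside 36.7% of the tested genes whose groups did not overlap in either direction. The median difference of the 9 tested members was -0.35 on the log2(FPKM + 1) scale, beside 0.01 over all tested genes. DESeq2 on the estimated counts called 5 of the 10 members lower (Csf2, Il6st, Il6ra, Osmr and Il11), with 8.05% of 20940 genes lower by that test. Without knockout replicate 3, limma called 2 members higher (Csf3 and Il6) and 2 lower (Csf2 and Il6st), where 13.9% of all tested genes were called higher and 10.8% lower. Below, a difference is the knockout mean less the WT mean of log2(FPKM + 1), a scale that compresses changes of low genes, levels are mean FPKM ± SD (n = 3), and adjusted p-values come from limma unless another tool is named.

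**Figure D1:**
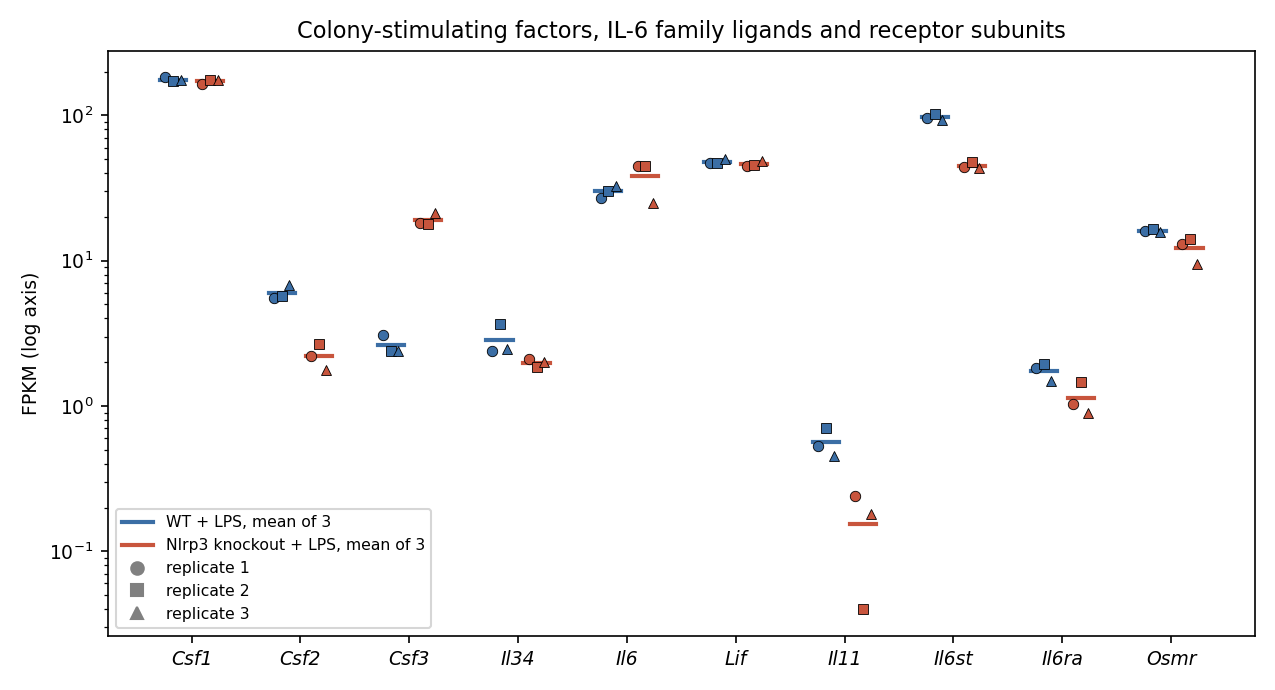
FPKM of the 10 genes on a log axis in each library (points, 1 shape per replicate number) with the mean of each group (bars), WT in blue and Nlrp3 knockout in red, all with LPS. The points of Csf3 lie higher in the knockout, those of Csf2, Il11 and Il6st lie lower, and those of Csf1 and Lif overlap between the groups.

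Csf3 showed the largest difference of the tested members and the reverse direction to Csf2. Csf3 (ENSMUSG00000038067, GRCm38 chromosome 11, positions 98701263 to 98703629, plus strand) stood at 3.09, 2.38 and 2.40 FPKM in the WT libraries and at 18.24, 17.83 and 21.33 FPKM in the knockout libraries. The groups were far apart, and the lowest knockout library was well above the highest WT library. The mean rose 7.29-fold, from 2.62 ± 0.404 to 19.1 ± 1.91 FPKM (log2 difference 2.48 ± 0.11 SE, 95% interval 2.21 to 2.74, adjusted p = 3.04e-05). The call was kept by limma, edgeR and DESeq2 and with each library left out, over which the difference ranged from 2.40 to 2.57.

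Csf2 (ENSMUSG00000018916, chromosome 11, 54247271 to 54249667, minus strand) stood at 5.54, 5.70 and 6.83 FPKM in WT and at 2.21, 2.67 and 1.76 FPKM in knockout libraries. All knockout values were below all WT values. The mean fell from 6.02 ± 0.703 to 2.21 ± 0.455 FPKM, a 2.72-fold lower level (-1.13 ± 0.13 SE, 95% interval -1.44 to -0.82, adjusted p = 0.00136), and was called lower by edgeR and DESeq2 and with each library left out as well. Csf2 lies 5.29 Mb from the targeted gene Nlrp3 on the same chromosome, whereas Csf3 and Lif lie 39.1 and 55.3 Mb from it. Of 187 tested genes within 10 Mb of Nlrp3, Csf2 included, 43 were called (23%), 34 lower and 9 higher. Lower calls thus outnumbered higher ones in this window. Over all 12136 tested genes 19.6% were called, 9.2% lower and 10.4% higher. Whether the position of Csf2 bears on its level was not tested.

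The 2 growth factors thus changed places. The ratio of Csf3 to Csf2 FPKM was 0.558, 0.418 and 0.351 in the WT libraries and 8.25, 6.68 and 12.1 in the knockout libraries. Csf2 was the more abundant of the pair in every WT library and Csf3 in every knockout library. Each gene's groups were already separate, in opposite directions, so the ratio had to separate them too. Its exact two-sided permutation p of 0.1, the smallest possible, was thus fixed in advance and is no separate result.

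Neither macrophage growth factor passed the test. Csf1 (ENSMUSG00000014599, chromosome 3, 107741048 to 107760469, minus strand) was the most abundant member in both groups, with 182.41, 171.77 and 173.78 FPKM in WT and 164.79, 174.02 and 175.36 FPKM in knockout libraries. The groups overlapped, and the log2 difference of -0.04 had a 95% interval of -0.20 to 0.13 (adjusted p = 0.753). Il34 (ENSMUSG00000031750, chromosome 8, 110741829 to 110805903, minus strand), the second ligand of Csf1r, stood at 2.40, 3.64 and 2.46 FPKM in WT and at 2.11, 1.85 and 2.00 FPKM in knockout libraries. Its groups did not overlap but came close, and WT replicate 2 was the highest value. The log2 difference of -0.35 (95% interval -0.67 to -0.02) did not pass (adjusted p = 0.138). Without WT replicate 2 it was -0.20 (adjusted p = 0.249).

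**Figure D2:**
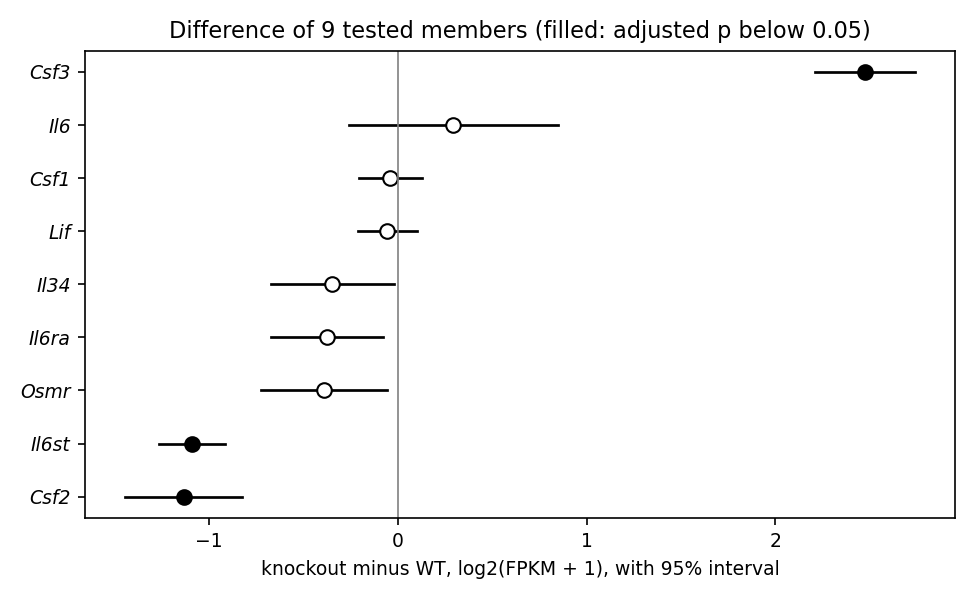
Difference between knockout and WT of the 9 tested genes on the log2(FPKM + 1) scale, with 95% intervals from limma and filled points where the adjusted p was below 0.05. Csf3 stands at 2.48, Csf2 and Il6st stand near -1.1, and the intervals of Csf1, Lif and Il6 span 0.

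Among the IL-6 family ligands, Il6 depended on a single library. Il6 (ENSMUSG00000025746, chromosome 5, 30013114 to 30019981, plus strand), a pleiotropic inflammatory cytokine, stood at 27.11, 30.13 and 32.79 FPKM in WT and at 45.01, 44.85 and 24.84 FPKM in knockout libraries. Knockout replicates 1 and 2 were above every WT library and knockout replicate 3 was below every one. The log2 difference of 0.29 ± 0.23 SE had a 95% interval of -0.26 to 0.85 and did not pass (adjusted p = 0.445). Without knockout replicate 3 it was 0.57 and passed (limma, adjusted p = 0.00977). In that library Il6 was at 0.553 of the mean of the other 2 knockout libraries, and Osmr, Csf2 and Il6ra were at 0.697, 0.721 and 0.726, while Csf3 was at 1.18.

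The genes whose profile over the 6 libraries was most like that of Il6 were Vbp1 (a prefoldin subunit), Dnaja1 (a co-chaperone of HSP70), Ipo11 (a nuclear import receptor), Gmps (GMP synthase) and Fbxo30 (an F-box protein), with Pearson r from 0.992 to 0.998 over the 6 libraries. Vbp1 stood at 17.17, 17.82 and 10.11 FPKM in the knockout libraries and Dnaja1 at 21.59, 21.24 and 13.15 FPKM. Both had their lowest value in knockout replicate 3, as Il6 did. They were picked by their likeness to Il6, so this shared low value is no separate result. None of the 5 was called. An r of at least 0.9 with Il6 was found for 543 genes, 4.48% of those tested other than members. The r is a description of libraries that form 2 groups and includes any difference between libraries in handling or depth.

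Lif did not differ beyond its spread. Lif (ENSMUSG00000034394, chromosome 11, 4257557 to 4272514, plus strand), the leukemia inhibitory factor, stood at 46.91, 46.98 and 49.88 FPKM in WT and at 44.57, 45.30 and 48.55 FPKM in knockout libraries. The groups overlapped, and the log2 difference was -0.05 with a 95% interval of -0.21 to 0.10 (adjusted p = 0.627). Il11 (ENSMUSG00000004371, chromosome 7, 4772373 to 4782857, minus strand) was the member below the filter, at 0.53, 0.71 and 0.45 FPKM in WT and 0.24, 0.04 and 0.18 FPKM in knockout libraries, from 72, 108 and 56 and from 36, 6 and 25 estimated counts. About 4 such counts are inferred to stand for 1 fragment. All knockout values were below all WT values at this low depth. edgeR did not call Il11 with its filter (log2 difference -1.85, adjusted p = 0.0741) or without a filter (-1.83, adjusted p = 0.113). DESeq2 (adjusted p = 0.0218) and limma without the filter (-0.44, adjusted p = 0.0405) called it lower.

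Of the 3 receptor subunits among the members, the shared subunit Il6st alone passed the test. Il6st (ENSMUSG00000021756, chromosome 13, 112464070 to 112510086, plus strand) stood at 95.68, 102.54 and 92.54 FPKM in WT and at 44.20, 47.60 and 43.30 FPKM in knockout libraries. The groups were separate, with the highest knockout library far below the lowest WT library. The mean fell from 96.9 ± 5.11 to 45.0 ± 2.27 FPKM, a 2.15-fold lower level (-1.09 ± 0.07 SE, 95% interval -1.26 to -0.92, adjusted p = 0.000143). The difference ranged from -1.13 to -1.05 with each library left out and was called each time, as it was by edgeR and DESeq2. The fall of Il6st stood beside that of 12 of 17 stromal markers and the rise of 19 macrophage markers; the part of either in it was not tested.

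Osmr and Il6ra, the other receptor subunits among the members, were lower on average but did not pass. Osmr (ENSMUSG00000022146, chromosome 15, 6813577 to 6874969, minus strand), which pairs with gp130 to bind oncostatin M, stood at 15.89, 16.50 and 15.67 FPKM in WT and at 12.91, 14.12 and 9.42 FPKM in knockout libraries. Knockout replicate 3 was again the lowest. The log2 difference was -0.39 (95% interval -0.72 to -0.05, adjusted p = 0.11), and -0.23 without knockout replicate 3 (adjusted p = 0.0594). Il6ra (ENSMUSG00000027947, chromosome 3, 89864059 to 89913196, minus strand), the IL-6 binding subunit, stood at 1.82, 1.93 and 1.49 FPKM in WT and at 1.03, 1.45 and 0.90 FPKM in knockout libraries. The lowest WT and the highest knockout library nearly met. The log2 difference was -0.37 (95% interval -0.67 to -0.08, adjusted p = 0.0889), and it passed without knockout replicate 2 (-0.48, adjusted p = 0.0387) and in DESeq2 (adjusted p = 0.0192), where Osmr passed as well (adjusted p = 0.0477).

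**Figure D3:**
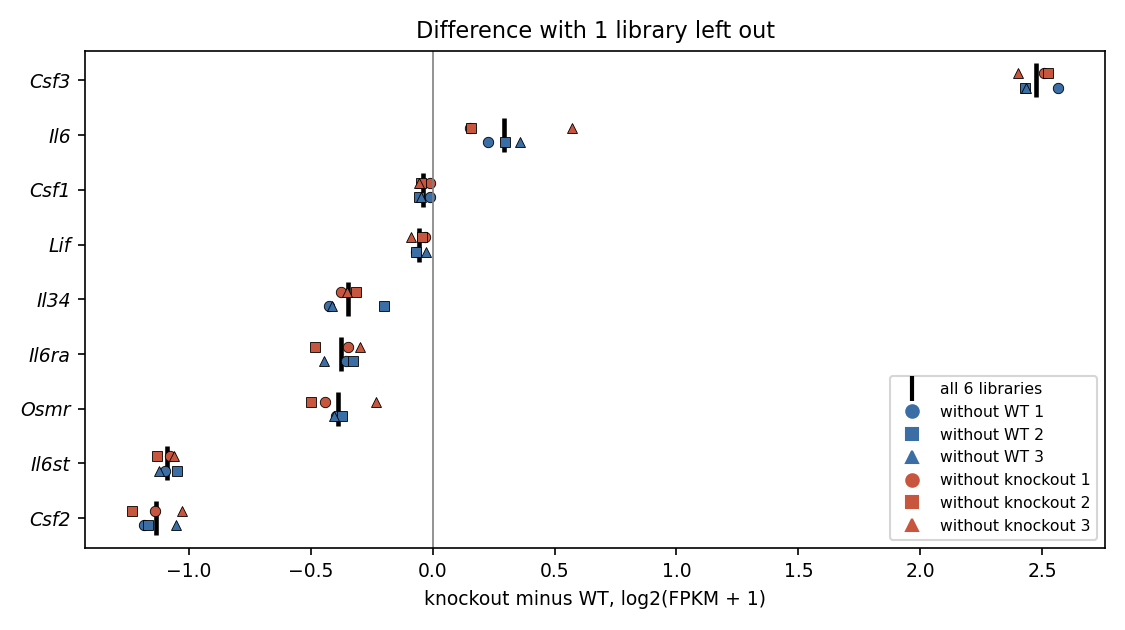
Difference between knockout and WT of the 9 tested genes on the log2(FPKM + 1) scale with all 6 libraries (black bar) and with each library left out (points, blue for a WT and red for a knockout library). Il6 moves from 0.29 to 0.57 without knockout replicate 3, whereas Csf3, Csf2 and Il6st stay apart from 0 in each case.

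The order of levels changed accordingly. In WT cultures it ran Csf1, Il6st, Lif, Il6, Osmr, Csf2, Il34, Csf3, Il6ra and Il11 by mean FPKM, and only the ranges of the neighbours Il34 and Csf3 overlapped. In knockout cultures Csf3 stood at rank 5, above Osmr, instead of rank 8, and Lif, Il6st and Il6 had overlapping ranges with their neighbours, as did Csf2 and Il34. The ratio of Il6st to Osmr was 5.91 to 6.21 in WT and 3.37 to 4.6 in knockout libraries (exact two-sided permutation p = 0.1, the smallest possible).

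Most listed receptors and binding partners of the colony-stimulating factors were higher in the knockout cultures. All 7 genes of the list were tested, of which 5 rose, none fell and 2 did not pass. The 5 include the IL-3 receptor chain Csf2rb2 and the binding partner Sdc1. The median difference was 0.64, beside 0.01 over all tested genes, of which 10.4% were called higher. Csf3r, the G-CSF receptor, rose from 1.38, 1.49 and 1.21 FPKM in WT to 4.93, 5.39 and 5.88 FPKM in knockout libraries (1.44 ± 0.09 SE, adjusted p = 0.000125). Csf1r rose from 6.83, 6.69 and 6.49 to 16.83, 17.79 and 18.52 FPKM (1.29 ± 0.07 SE, adjusted p = 4.72e-05). The values of both groups were tight and separate. The GM-CSF receptor chain Csf2ra rose from 3.98 ± 0.724 to 8.78 ± 0.744 FPKM (adjusted p = 0.00182) while its ligand gene Csf2 fell in the same libraries. Csf2rb2, the beta chain of the IL-3 receptor, rose from 1.07 to 2.24 FPKM (adjusted p = 0.00264), and its near-identical neighbour Csf2rb stood at 0.85 and 1.51 FPKM (adjusted p = 0.0555; DESeq2 called it higher, adjusted p = 0.00913); reads shared by the pair make both values uncertain. The proteoglycans described as further binding partners of Il34 were Sdc1, which rose from 52.2 to 74.5 FPKM (adjusted p = 0.00431), and Ptprz1, at 2.08 and 1.76 FPKM (adjusted p = 0.484). Csf1r is itself one of the macrophage markers and Csf3r one of the granulocyte genes, and the part of such cells in the change was not tested.

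**Figure D4:**
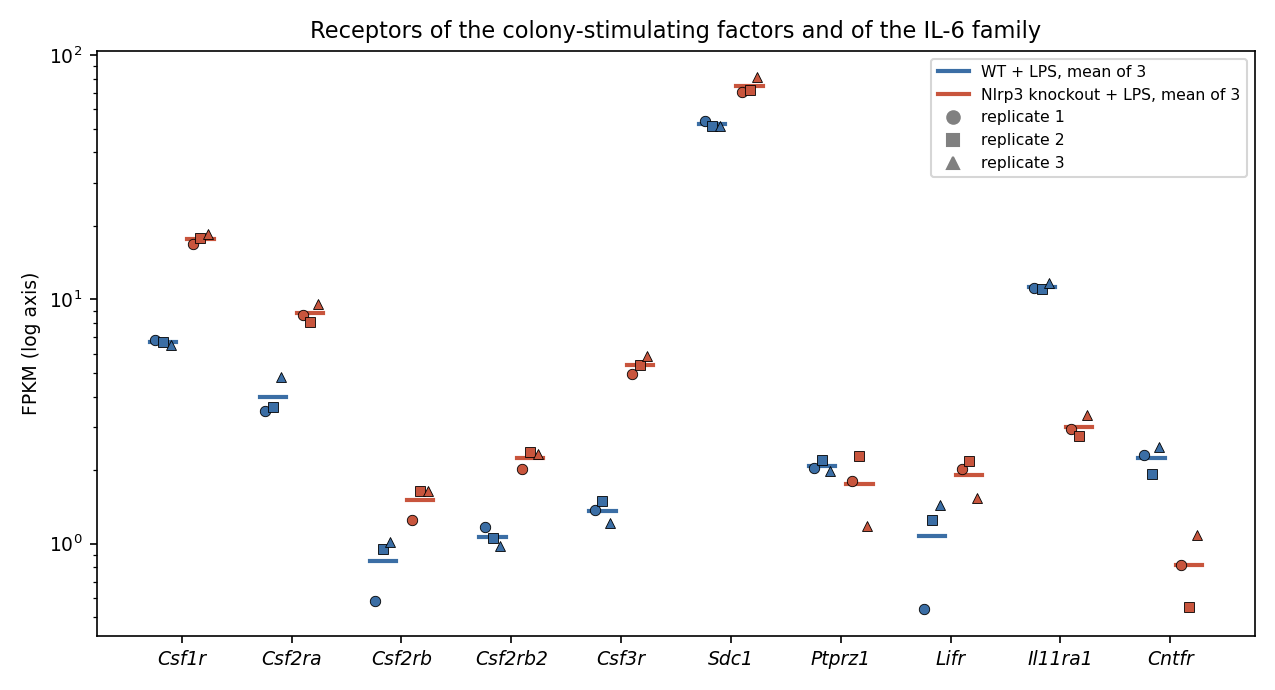
FPKM on a log axis of the 10 tested receptor and binding partner genes outside the 10 members. Points are libraries (1 shape per replicate number) and bars are group means, WT in blue and Nlrp3 knockout in red. Csf1r, Csf2ra, Csf2rb2, Csf3r and Sdc1 lie higher in the knockout, and Il11ra1 and Cntfr lie lower.

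The other receptor subunits of the IL-6 family showed a different picture. Of 6 listed genes 3 were tested, 2 fell and none rose, with a median difference of -0.84. Il11ra1, the IL-11 binding subunit, fell from 11.17, 11.07 and 11.62 FPKM to 2.95, 2.75 and 3.35 FPKM (-1.62 ± 0.08 SE, adjusted p = 4.19e-05), a 3.74-fold lower level. Its groups were separate and tight. Its paralog Il11ra2 was below the filter, at 0.2 and 0.04 FPKM, and reads shared by the pair are uncertain. Cntfr, the CNTF binding subunit, fell from 2.24 to 0.82 FPKM (adjusted p = 0.00574). Lifr, which pairs with gp130 for LIF, stood at 0.54, 1.25 and 1.44 FPKM in WT and at 2.03, 2.18 and 1.54 FPKM in knockout libraries and did not pass (0.51, adjusted p = 0.123), although DESeq2 called it higher (adjusted p = 0.049). Il27ra (0.19 and 0.217 FPKM) and Il31ra (0 and 0.00333 FPKM) were not tested.

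Among 11 further ligands 5 were tested, 3 rose and 1 fell. Ebi3, the shared subunit of IL-27 and IL-35, rose from 3.96 to 8.59 FPKM (adjusted p = 0.0116), Clcf1, a gp130 cytokine, from 7.59 to 12.7 FPKM (adjusted p = 0.0389) and Osm, oncostatin M, from 0.7 to 1.53 FPKM (adjusted p = 0.0172). Ctf1, cardiotrophin-1, fell from 1.67, 3.21 and 2.77 FPKM to 0.13, 0.32 and 0.97 FPKM (-1.28, adjusted p = 0.014). The Clcf1 call was lost without WT replicate 3, knockout replicate 1 or knockout replicate 2 (adjusted p = 0.075, 0.124 and 0.102), the Osm call without WT replicate 2, WT replicate 3 or knockout replicate 2 (0.0532, 0.0592 and 0.0564) and the Ctf1 call without WT replicate 3 (0.0551, limma). In edgeR without a filter Clcf1 (adjusted p = 0.054) and Ctf1 (0.0626) did not pass, and in limma without a filter Clcf1 did not pass (0.0799). Il3, the neighbour of Csf2, and Il31 were at 0 in all libraries, and Il5 (0.01 and 0.0633 FPKM), Il27 (0.11 and 0.413), Ctf2 (0.0833 and 0) and Cntf (0.383 and 0.89) were below the filter.

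Most of the listed downstream genes did not pass. Of 11 kinases, STAT factors, phosphatases and shedding proteases 1 rose and 2 fell. Stat3, the main transcription factor downstream of gp130, fell from 24.02, 23.62 and 22.12 FPKM to 15.35, 16.74 and 17.13 FPKM (-0.48 ± 0.07 SE, adjusted p = 0.00398), and all knockout values were below all WT values. Ptpn6, a phosphatase of blood cells, rose from 4.43 to 9.77 FPKM (adjusted p = 0.00322). Of 16 feedback genes and STAT3 targets 3 rose, 1 fell and 12 did not pass. Socs2, a feedback inhibitor of cytokine signalling, rose from 1.17 to 2.32 FPKM (adjusted p = 0.00633) and Bcl3, a nuclear IκB protein, fell from 21.0 to 14.1 FPKM (adjusted p = 0.00427). Timp1, a metalloproteinase inhibitor, rose from 1230 ± 54.7 to 1927 ± 238 FPKM (adjusted p = 0.0157) but not without WT replicate 1, 2 or 3 or knockout replicate 1 (0.0633, 0.0696, 0.0562 and 0.0651) or without the filter (0.111). The survival gene Mcl1 (0.28, adjusted p = 0.0456) lost its call in 10 of 14 alternatives, among them edgeR (adjusted p = 0.0736) and every leave-one-out fit (0.0716 to 0.15) but that without knockout replicate 2. The feedback inhibitor Socs3 stood at 31.39, 31.65 and 30.45 FPKM in WT and 35.51, 34.03 and 42.77 FPKM in knockout libraries; its groups were separate but the difference of 0.25 did not pass (adjusted p = 0.126), and Socs3 was picked after its values were seen.

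The list of genes that control cytokine mRNAs split. It also holds Nfkbiz and Tnfaip3, which act on transcription and on NF-κB signalling. Of 12 tested, 4 rose, Nfkbiz and Tnfaip3 among them, and 2 fell, and the median difference was 0.19. Zfp36l1, an RNA-binding protein that destabilises mRNAs with the AU-rich pentamers printed above, fell from 65.55, 68.89 and 60.37 FPKM to 25.18, 29.80 and 26.16 FPKM (-1.23 ± 0.09 SE, adjusted p = 2e-04). Its relative Zfp36, tristetraprolin, fell from 20.80, 22.91 and 20.58 FPKM to 12.33, 11.24 and 15.58 FPKM (-0.69 ± 0.12 SE, adjusted p = 0.00889). For both genes all knockout libraries were below all WT libraries. Csf2 and Csf3, whose 3′ UTRs carry these pentamers at high density, moved in opposite directions in the same libraries, and a link was not tested. Nfkbiz, a co-activator of Il6 transcription, rose from 19.6 to 38.5 FPKM (adjusted p = 0.00461), Hnrnpd, which encodes the AU-rich element binding protein AUF1, from 13.1 to 17.7 (adjusted p = 0.00401), Tnfaip3, the A20 inhibitor of NF-κB signalling, from 4.16 to 10.1 (adjusted p = 0.0185) and Zc3h12a from 27.4 to 35.4 FPKM (adjusted p = 0.0204). The Tnfaip3 call was lost without WT replicate 1 or 2 or knockout replicate 1 or 2 (0.0607, 0.0621, 0.0628 and 0.0615) and the Zc3h12a call without WT replicate 1, 2 or 3 (0.0708, 0.067 and 0.077, limma) and in edgeR without a filter (0.0571).

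**Figure D5:**
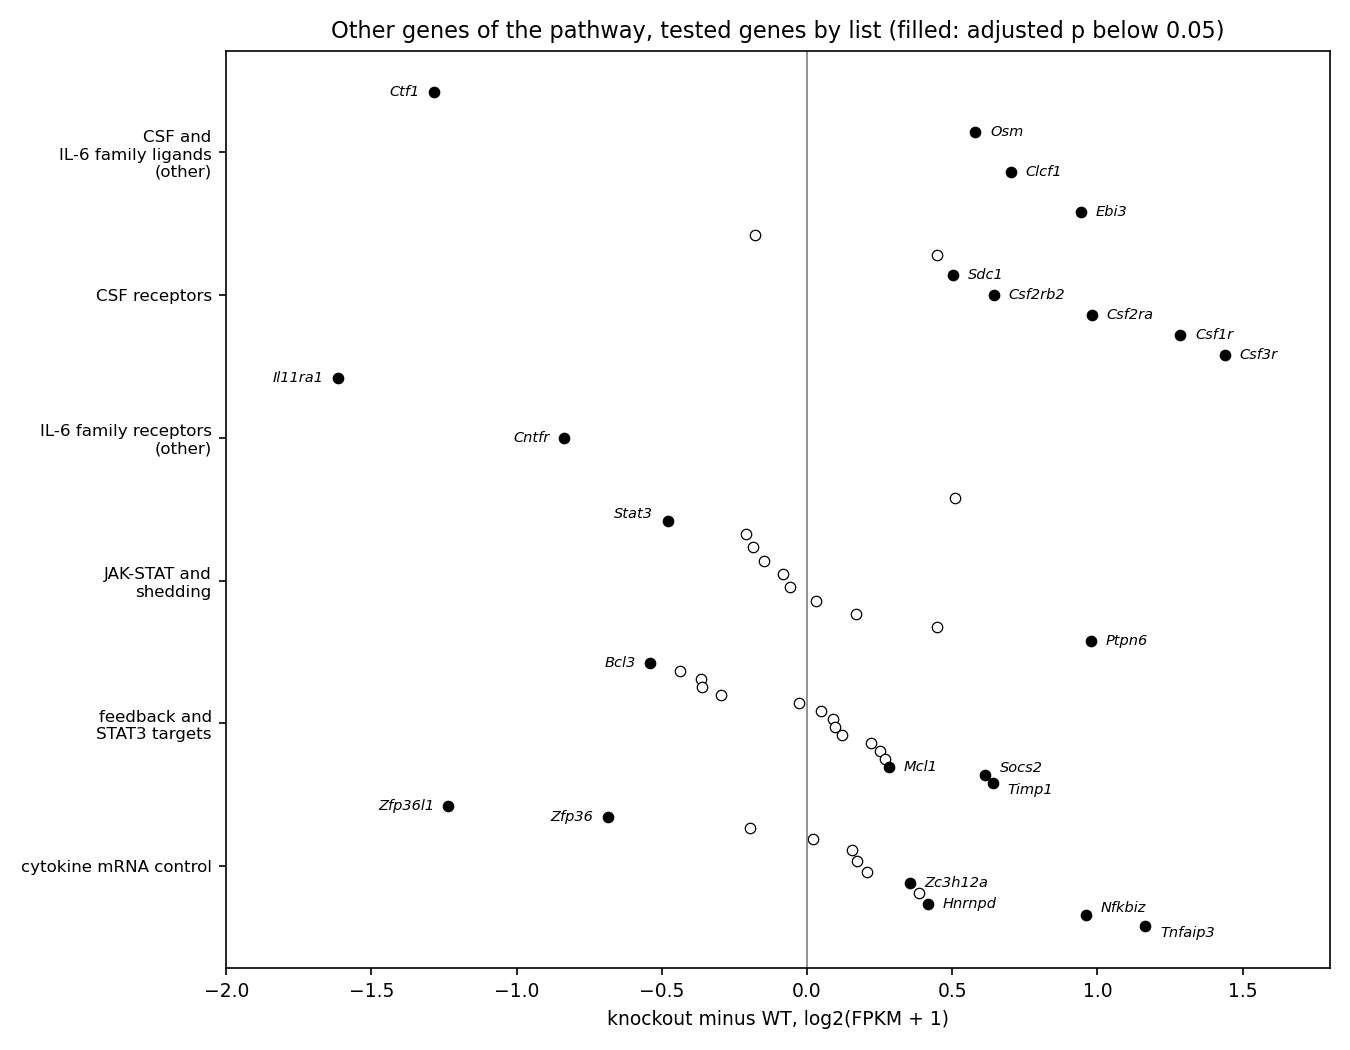
Difference between knockout and WT on the log2(FPKM + 1) scale of the tested genes of 6 pathway lists that are reported here, 1 point per gene, filled and named where the adjusted p was below 0.05. Listed receptors and binding partners of the colony-stimulating factors lie to the right of 0 apart from 1 gene. Il11ra1 and Cntfr lie to the left, and most downstream genes lie near 0.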

How the data were processed

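Polyadenylated RNA of 3 WT and 3 Nlrp3 knockout stromal cell libraries was analysed. Per the submitters' processing notes, cutadapt 1.9, HISAT2 2.0.4, StringTie 1.3.4d and GRCm38 were used; for the counting step, annotation release and strand setting the sources used here name nothing, so overlapping and antisense genes cannot be separated. The authors deposited FPKM values and, beside them, estimated counts per gene, per the file headers. The estimated counts were whole numbers, of which 44.4% between 1 and 16 were multiples of 4, and over 5837 well-covered genes they were proportional to FPKM within 1%; 1 fragment is thus inferred to give about 4 counts. No filter by the authors is stated. Coordinates are those of the table.

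limma 3.58.1 (R 4.3.3) compared log2(FPKM + 1) of genes that reached FPKM 1 in at least 3 libraries (group only, intensity trend, two-sided, Benjamini-Hochberg over 12136 genes, threshold 0.05). edgeR 4.0.16 (quasi-likelihood, TMM) and DESeq2 1.42.0 on the estimated counts, other filters, a pseudocount of 0.1, median-ratio scaling, a replicate block and leaving out each library were alternatives. Members and lists were chosen with earlier results of these data known; beyond the members, named genes are Nlrp3, all listed ligands and receptors, up to 4 called genes per direction of each list, 3 macrophage and 3 stromal markers and the 5 genes most like Il6. 3′ UTRs come from GENCODE M21 (GRCm38), using per gene the coding transcript with the longest coding sequence. The counting depth limits Il11 most. Single genes of the lists that are not reported here are counted in the lists' totals and left out of the plot of the lists.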

Additional observations from a re-analysis of the deposited data

How the results depend on the processing

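Csf3, Csf2 and Il6st kept their direction and their call, and Csf1, Lif and Il34 their direction without a call, under all 14 alternatives. Il6 passed in 1 of them, Il6ra in 2 and Osmr in 1. No result named here reversed. DESeq2 called 5 members and 1685 genes lower, against 2 and 1117 with limma; it tested more genes, and the cause was not tested further. With 1 library left out, the number of genes called higher ranged from 868 to 1685 and lower from 721 (without WT replicate 1) to 1314, and members called higher from 1 to 2 and lower from 2 to 3. The Nlrp3 difference ranged from -2.31 to -1.77 FPKM in those comparisons, around -2.1 with all libraries. The titles number the libraries of each group by day. Same-numbered libraries deviated together only in part (correlations of their deviations 0.02, 0.17 and 0.10), and WT replicate 1 correlated best with another number. Correlations between different-numbered libraries ranged from -0.17 to 0.08. With 3 libraries per group these values cannot decide whether same-numbered libraries shared a day. The fit with the replicate block called 1106 genes higher and 980 lower and kept the members' calls; among the other named genes it lost Clcf1 (adjusted p = 0.0574), Osm (0.0623) and Mcl1 (0.0643) and gained Csf2rb (0.0339). Depth limits Il11, whose lowest library had 6 estimated counts, with about 4 counts inferred per fragment.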
